A study of Mus musculus with 12 samples.

Results

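Sepw1, Selh and Selt are the small selenoproteins of the selenoprotein W type in the deposited tables, and they make up 3 of the 23 selenoprotein genes listed. They were taken by gene symbol, in all 4 tables and all 12 libraries, and not by any measured value. The study measured ribosome footprints and mRNA in mouse liver to ask how dietary selenium and the selenocysteine tRNA affect selenoprotein expression. The TrspA37G mice were of the strain FVB/N/TrspA37G and carried 20 copies of the mutant selenocysteine tRNA transgene TrspA37G. The wild-type mice were FVB/N without the transgene. The mice of both genotypes had eaten a diet of 0, 0.1 or 2.0 ppm selenium for 6 weeks. The age is given as 3 weeks for every sample, which is shorter than the time on the diet, so it may not be the age at harvest. Each genotype and diet has 1 footprint library and 1 mRNA library, without replicates. The sources used here give neither the number of mice behind a library nor the promoter that drives the transgene. In bulk liver, fewer cells of a type and less RNA per cell cannot be told apart.

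Selenoproteins carry selenocysteine, which is inserted at a UGA codon by a dedicated tRNA and a hairpin in the 3' untranslated region of the mRNA. Proteins of the selenoprotein W type are small, have a thioredoxin-like fold and hold selenocysteine in a redox motif near the N terminus. Sepw1 encodes selenoprotein W, a small cytosolic redox protein known from muscle. Selh encodes selenoprotein H, which lies in the nucleus. Selt encodes selenoprotein T, a membrane-anchored oxidoreductase of the endoplasmic reticulum. In liver, selenoproteins are known to form a hierarchy in which stress-related ones lose mRNA and protein in selenium deficiency before housekeeping ones. Ribosomes that do not insert selenocysteine stop at the UGA, so the UGA can end translation and can mark the mRNA for nonsense-mediated decay. The mutation of the TrspA37G transgene alters a base beside the anticodon that is modified in the wild-type tRNA.

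The coding sequence is shown from the start codon to 10 codons past the UGA, because the place of the UGA decides which footprints can be counted before and after it. Capitals mark the UGA codon for selenocysteine, written TGA, and the sequences run 5' to 3' on the coding strand, from the GENCODE M21 transcripts on build GRCm38.
Sepw1: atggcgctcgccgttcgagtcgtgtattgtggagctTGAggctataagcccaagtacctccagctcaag
Selh: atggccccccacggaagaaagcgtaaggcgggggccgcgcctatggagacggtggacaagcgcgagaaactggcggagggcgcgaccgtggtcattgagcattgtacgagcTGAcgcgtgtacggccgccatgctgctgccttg
Selt: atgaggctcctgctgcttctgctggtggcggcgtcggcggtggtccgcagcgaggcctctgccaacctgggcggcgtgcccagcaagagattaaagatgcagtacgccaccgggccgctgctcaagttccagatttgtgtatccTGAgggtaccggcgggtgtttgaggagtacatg
In Sepw1 the UGA is codon 13 of 88, in exon 2 of 6, at chr7:15920464-15920466 on the minus strand. In Selh it is codon 38 of 116, in exon 2 of 4, at chr2:84670381-84670383 on the minus strand. In Selt it is codon 49 of 195, in exon 2 of 6, at chr3:58585238-58585240 on the plus strand. Thus 75, 78 and 146 codons follow the UGA in Sepw1, Selh and Selt. The codon 3 places before the UGA was TGT, for cysteine, in each of the 3 genes, which together with the UGA gives the redox motif of cysteine and selenocysteine. The base after the UGA was G in Sepw1 and Selt and C in Selh, and the stop codons were TGA, TAA and TAG in Sepw1, Selh and Selt. The GC content of the coding sequence was 55.3% in Sepw1, 59.5% in Selh and 47.2% in Selt.

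Some reads may not belong to these genes alone. Of the 556 stretches of 30 bases in the Selt coding sequence, 91 (16.4%) also occur in its processed pseudogene Selenot-ps, whereas no stretch of the Sepw1 or Selh coding sequence occurs in a transcript of another annotated gene. The Selh locus is overlapped on the same strand by the annotated gene Gm28635, which shares no such stretch with the Selh coding sequence. The sources used here do not say how reads that map more than once were treated.

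Footprint libraries held 17763406 to 30296837 mapped reads and mRNA libraries 10669213 to 16709701. The tables list selenoprotein genes only, so the liver label could not be checked against markers of hepatocytes or of other cells. Sepp1, which encodes the secreted plasma protein that delivers selenium from the liver, had 1494, 2025 and 2163 RPKM of mRNA in TrspA37G livers and 2003, 2630 and 3045 RPKM in wild-type livers at 0, 0.1 and 2.0 ppm. Levels are reads divided by the length of the region and by the mapped reads of the library, called RPKM for mRNA and RPFKM for footprints. The CDS window of the tables leaves out the first 15 codons, so for Sepw1, with its UGA at codon 13, it holds only footprints 3' of the UGA. For Selh and Selt it spans both sides. A difference is called when it is at least 1.5-fold and its 95% counting interval excludes 1. Such an interval holds counting error alone. Reads are not independent molecules, and no library has a replicate. The comparisons of 0 and of 2.0 ppm share the 0.1 ppm library, and comparisons of genotypes use the same libraries as those of diets.

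Sepw1 and Selt were of middle rank among the 23 genes in mRNA, and Selh was low. Sepw1 mRNA was at 9.49, 23.2 and 29.3 RPKM in TrspA37G livers and 13.8, 41.9 and 48.7 RPKM in wild-type livers at 0, 0.1 and 2.0 ppm, from 85 to 436 reads. Both libraries at 0 ppm were thus below all 4 libraries with added selenium, and at each diet the TrspA37G library was below the wild-type one. Each step in the order of the 6 Sepw1 levels was larger than counting error, the smallest being 1.16-fold (1.02 to 1.33) between wild type at 2.0 and at 0.1 ppm. Selh mRNA was at 0.231, 1.08 and 2.19 RPKM in TrspA37G livers and 1.80, 4.44 and 3.82 RPKM in wild-type livers. These levels rest on 2, 8 and 20 reads in TrspA37G livers and 21, 44 and 33 reads in wild-type livers, and no level differed from its neighbour in their order beyond counting error. Selt mRNA was at 21.9, 29.9 and 41.8 RPKM in TrspA37G livers and 36.6, 34.3 and 37.3 RPKM in wild-type livers, from 971 to 2188 reads. The Selt levels in wild-type livers lay within a narrow range at all diets, while in TrspA37G livers each step up in selenium went with a higher level. Among the 23 genes Sepw1 ranked 10 to 14, Selh 16 to 20 and Selt 10 to 12 in mRNA.

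**Figure D1:**
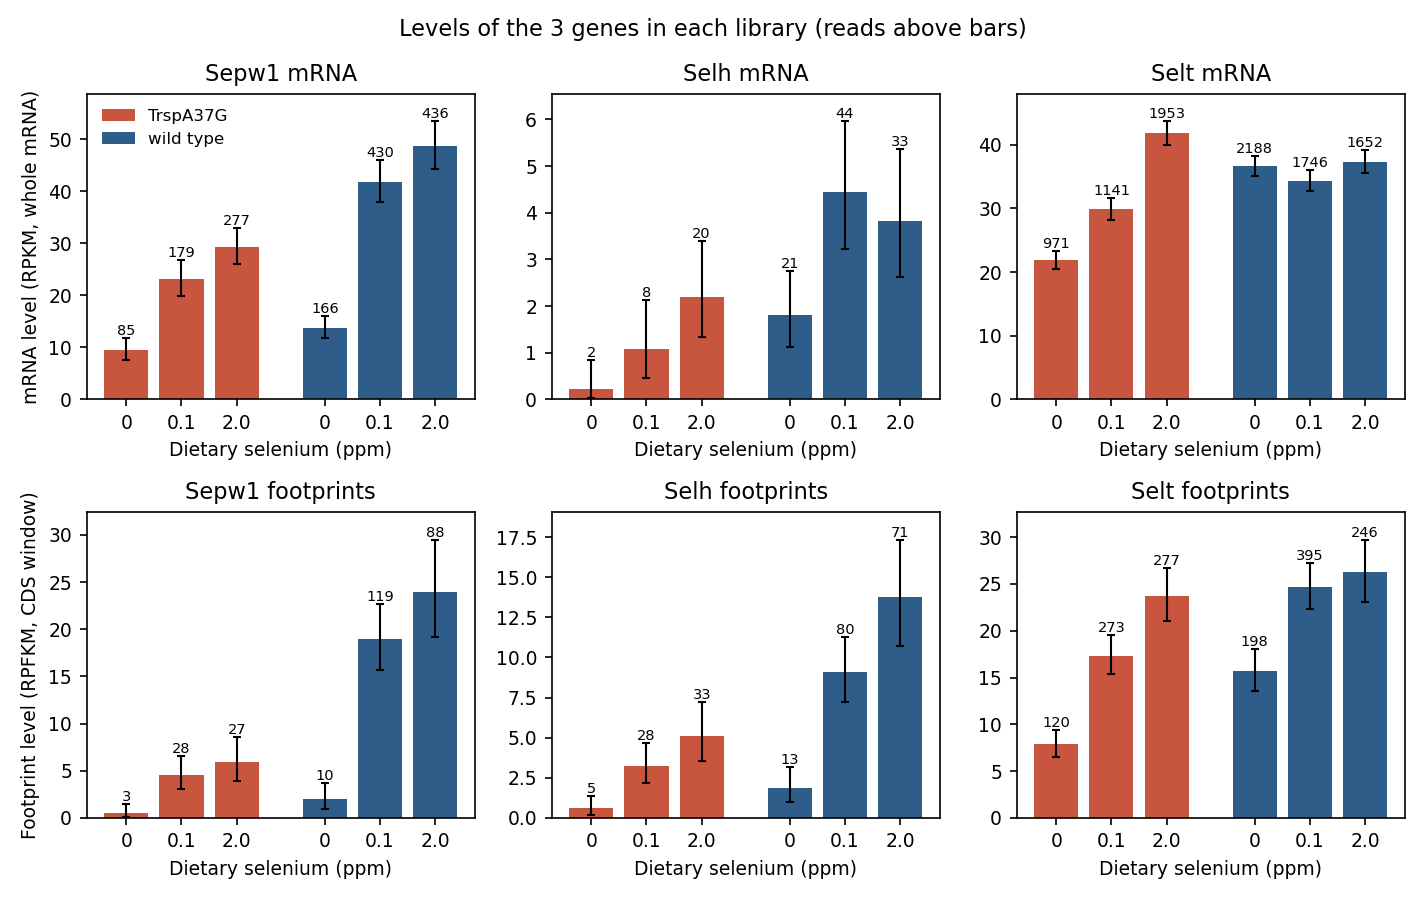
Levels of Sepw1, Selh and Selt by dietary selenium, with mRNA in RPKM in the upper row and footprints over the CDS window in RPFKM in the lower row. Each bar is 1 library (TrspA37G left, wild type right), lines are 95% Poisson intervals and the numbers over the bars are reads. Selt mRNA in wild-type livers is level at 34.3 to 37.3 RPKM, whereas Sepw1 mRNA there is at 13.8 RPKM at 0 ppm and 41.9 RPKM at 0.1 ppm.

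Without added selenium, the 3 mRNAs differed in response. Sepw1 mRNA was 2.45-fold lower at 0 than at 0.1 ppm in TrspA37G livers (1.88 to 3.21) and 3.04-fold lower in wild-type livers (2.54 to 3.66). Selh mRNA was 2.46-fold lower in wild-type livers (1.43 to 4.36). In TrspA37G livers the ratio was 4.65-fold, but with 2 reads against 8 its interval reached from 0.928 to 45.0 and no call was made. Selt mRNA was within the rule in both genotypes, at log2 -0.45 (-0.57 to -0.33) in TrspA37G livers and 0.09 (0.00 to 0.18) in wild-type livers. So 1 of the 3 genes was called lower in TrspA37G livers, where 6 of 20 genes compared were (30%), and 2 of 3 in wild-type livers, where 4 of 20 were (20%). The median log2 over the 3 genes was -1.29 in TrspA37G livers and -1.30 in wild-type livers, against -0.44 and -0.24 over all 20 genes. When the levels were divided by the median ratio of all genes, Sepw1 and Selh stayed below 0 in both genotypes, and Selt was at log2 -0.01 in TrspA37G livers and 0.33 in wild-type livers. All 20 genes are selenoprotein genes, so this median scaling also divides out any response they share. A call that it ends, here and below, is thus not shown to come from library scaling.

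In footprints over the CDS window, both 0 ppm libraries were the lowest for each of the 3 genes. Sepw1 footprints were at 0.502, 4.54 and 5.89 RPFKM in TrspA37G livers and 2.02, 19.0 and 23.9 RPFKM in wild-type livers at 0, 0.1 and 2.0 ppm. These rest on 3, 28 and 27 footprints in TrspA37G livers and 10, 119 and 88 in wild-type livers, all of them past the UGA. The TrspA37G level at 2.0 ppm was below the wild-type level at 0.1 ppm, by 3.22-fold (2.11 to 5.09), so no diet brought Sepw1 footprints in TrspA37G livers to the level of selenium-fed wild-type livers. Selh footprints were at 0.595, 3.23 and 5.12 RPFKM in TrspA37G livers and 1.87, 9.07 and 13.7 RPFKM in wild-type livers, from 5, 28 and 33 against 13, 80 and 71 footprints. Their order was that of Sepw1, with both 0 ppm libraries lowest and both selenium-fed wild-type libraries highest. Selt footprints were at 7.87, 17.3 and 23.7 RPFKM in TrspA37G livers and 15.7, 24.7 and 26.2 RPFKM in wild-type livers, from 120 to 395 footprints. In their order the 3 highest (TrspA37G at 2.0 ppm and wild type at 0.1 and 2.0 ppm) were not separated from each other beyond counting error, nor was wild type at 0 ppm from TrspA37G at 0.1 ppm. Selt ranked 12 of 23 genes in footprints in every library, Sepw1 13 to 18 and Selh 15 to 17.

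All 3 genes had lower footprint levels at 0 than at 0.1 ppm in both genotypes. For Selt in wild-type livers the sign turned once the median change of the selenoprotein genes was divided out. Sepw1 was 9.04-fold lower in TrspA37G livers (2.79 to 46.4) and 9.41-fold lower in wild-type livers (4.94 to 20.1). Median scaling kept both calls, with log2 -2.09 (-4.45 to -0.40) in TrspA37G livers and -2.50 (-3.60 to -1.57) in wild-type livers in place of -3.18 and -3.23. Selh was 5.42-fold lower in TrspA37G livers (2.07 to 18.0), a call that median scaling ended with log2 -1.36 (-3.09 to 0.04), and 4.86-fold lower in wild-type livers (2.69 to 9.53). Selt was 2.20-fold lower in TrspA37G livers (1.77 to 2.75) and 1.58-fold lower in wild-type livers (1.33 to 1.88), but after division by the median ratio of all genes it was at log2 -0.06 in TrspA37G livers and 0.08 in wild-type livers, so that its sign turned in wild type. Among the 20 genes compared, 14 (70%) were lower in TrspA37G livers and 11 (55%) in wild-type livers, so lower footprints as such were common to most selenoprotein genes. Of the 20 footprint ratios, that of Sepw1 was the lowest in both genotypes and that of Selh ranked 3 in TrspA37G livers and 2 in wild-type livers. Selt ranked 9 in TrspA37G livers and 11 in wild-type livers. These ranks set a Sepw1 window wholly past the UGA beside windows of other genes that also hold footprints before it. Past the UGA alone, wild-type Selh was at log2 -4.42 (-9.77 to -1.81), from 1 footprint against 27. Sepw1 was at -2.88 (-3.79 to -2.08) and Selt at -0.97 (-1.32 to -0.63) there. Sepw1 over Selh was at log2 1.54 (-1.30 to 6.99), so which of these genes was lowest past the UGA was not settled. The medians over the 3 genes were log2 -2.44 in TrspA37G livers and -2.28 in wild-type livers, against -1.08 and -0.73 over all 20 genes.

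**Figure D2:**
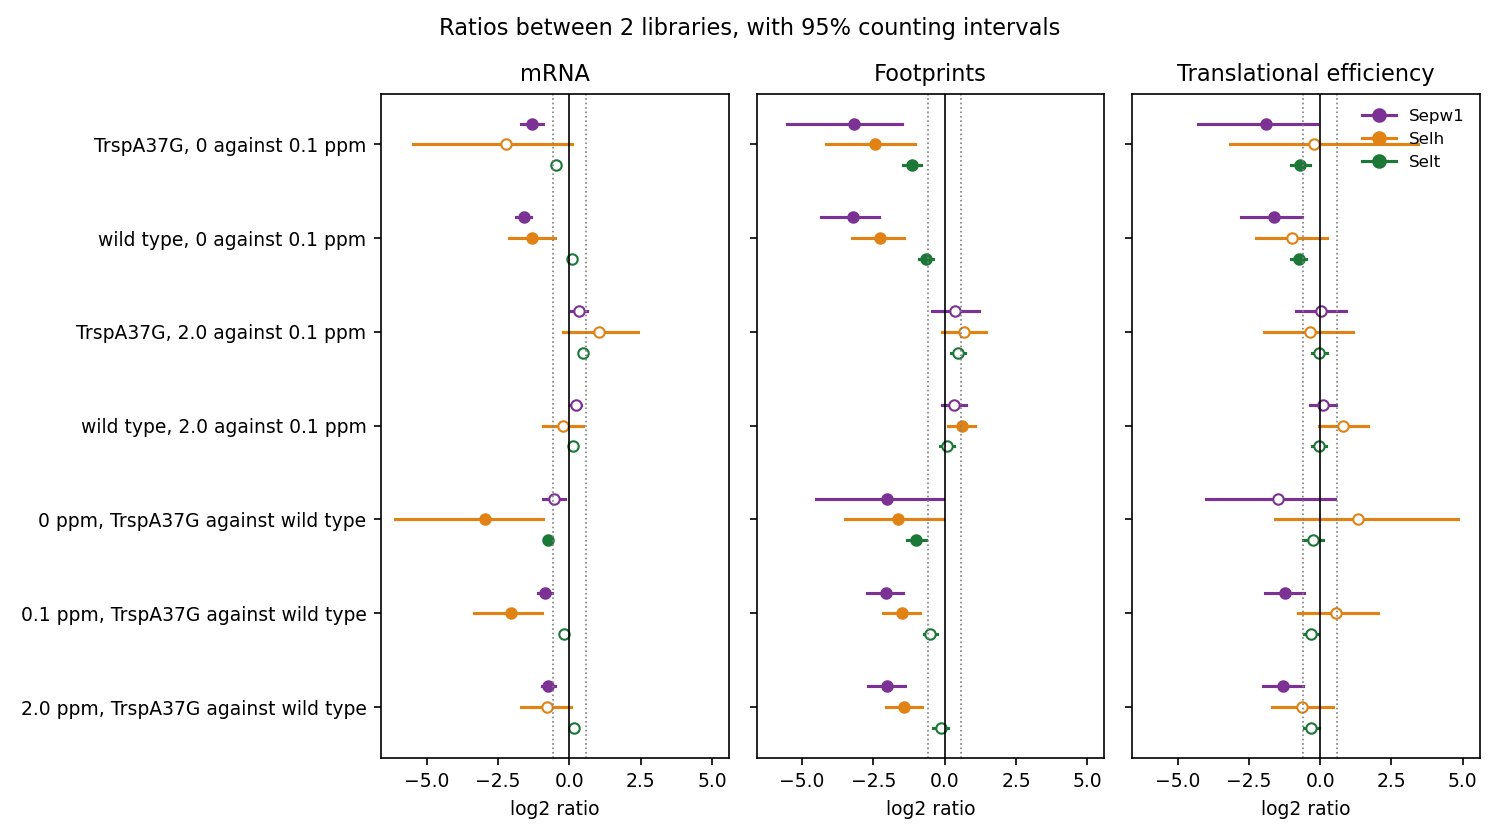
Log2 ratios between 2 libraries for mRNA, footprints and translational efficiency, one row per comparison, with 95% counting intervals as lines. Filled points are called (at least 1.5-fold, dotted lines, and an interval that excludes 0), open points are not. Footprint ratios at 0 against 0.1 ppm lie below 0 for all 3 genes in both genotypes, although Selt in wild-type livers moves to log2 0.08 after median scaling.

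At high selenium few differences passed the rule. Between 2.0 and 0.1 ppm, mRNA of 0 of the 3 genes was called in either genotype, where of all 20 genes 1 was lower in TrspA37G livers (5%) and 1 was higher in wild-type livers (5%). Selh had the highest mRNA ratio of the 20 genes in TrspA37G livers, log2 1.03, but from 20 reads against 8 its interval ran from -0.22 to 2.42. Selt was at log2 0.48 (0.38 to 0.59) there, below 1.5-fold. In footprints, Selh was called higher in wild-type livers, by 1.51-fold (1.08 to 2.11), where 3 of 20 genes were higher (15%). That call was lost without the bases just before the UGA described below, with a log2 ratio of 0.46 (-0.30 to 1.20), and after median scaling, with 0.39 (-0.09 to 0.87). Sepw1 footprints were at log2 0.33 (-0.08 to 0.74) in wild-type livers and 0.38 (-0.44 to 1.19) in TrspA37G livers. Over the longer Sepw1 3' window described below they were at 0.54 (0.16 to 0.92) and 0.43 (-0.29 to 1.15), both below 1.5-fold. Selt footprints were at 0.09 (-0.15 to 0.32) in wild-type livers, where median scaling gives -0.12, and at 0.45 (0.20 to 0.70) in TrspA37G livers. Before the UGA, Selt held 41.5 RPFKM at 0.1 ppm and 76.4 at 2.0 ppm in TrspA37G livers, against 51.5 and 48.3 in wild-type livers. No ratio was computed for that window. No gene of the 20 was called in TrspA37G footprints over the CDS window at 2.0 ppm (0%).

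The TrspA37G transgene went with lower levels of Sepw1 and Selh. Sepw1 footprints in TrspA37G livers were lower than in wild-type livers by 4.02-fold at 0 ppm (1.04 to 22.7), by 4.18-fold at 0.1 ppm (2.75 to 6.56) and by 4.06-fold at 2.0 ppm (2.61 to 6.51). The Sepw1 ratio between genotypes thus hardly varied with diet in these libraries, although at 0 ppm it rests on 3 reads against 10, and median scaling ended the call there with log2 -1.04 (-3.54 to 0.92). Sepw1 mRNA was lower by 1.80-fold at 0.1 ppm (1.51 to 2.16) and by 1.66-fold at 2.0 ppm (1.42 to 1.94), a call that median scaling ended with log2 -0.30. At 0 ppm Sepw1 mRNA was at log2 -0.54 (-0.93 to -0.15), within the rule, and at 0.01 after median scaling. Selh footprints were lower by 3.13-fold at 0 ppm (1.05 to 11.2), by 2.81-fold at 0.1 ppm (1.81 to 4.49) and by 2.68-fold at 2.0 ppm (1.75 to 4.19), and median scaling again ended the call at 0 ppm, with log2 -0.68 (-2.52 to 0.90). Selh mRNA was lower by 7.79-fold at 0 ppm, from 2 reads against 21 (1.91 to 68.6), and by 4.13-fold at 0.1 ppm, from 8 reads against 44 (1.92 to 10.2). At 2.0 ppm its log2 ratio was -0.80 (-1.68 to 0.05).

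Over the whole mRNA and the CDS window, Selt passed the 1.5-fold rule between genotypes at 0 ppm and not at 0.1 or 2.0 ppm. Past the UGA alone, a choice made after seeing the data, its footprints passed the rule as lower in TrspA37G livers at 2 diets. They were at log2 -1.77 (-2.37 to -1.20) at 0 ppm and -0.68 (-1.02 to -0.34) at 2.0 ppm. At 0.1 ppm they were at -0.57 (-0.87 to -0.28), not past the rule. At 0 ppm Selt mRNA was lower in TrspA37G livers by 1.67-fold (1.55 to 1.81) and its CDS footprints by 1.99-fold (1.58 to 2.52). Median scaling ended both calls, with log2 -0.19 for mRNA and -0.03 for footprints. At 0.1 ppm the log2 ratio was -0.20 for mRNA, which median scaling turned to 0.04, and -0.51 (-0.74 to -0.28) for footprints, which it brought to -0.03. At 2.0 ppm Selt was at 0.17 (0.07 to 0.26) for mRNA and at -0.15 (-0.40 to 0.11) for footprints, and median scaling put them at 0.60, past the rule as higher in TrspA37G livers, and at 0.52. The median log2 ratio of mRNA over all 20 genes was -0.55, -0.23 and -0.43 at 0, 0.1 and 2.0 ppm. Counted over the 3 diets, mRNA was called lower for 2, 2 and 1 of the 3 genes, against 9 of 20 (45%), 4 of 20 (20%) and 6 of 20 (30%) overall. Footprints were called lower for 3, 2 and 2 of the 3 genes, against 12 of 20 (60%), 8 of 20 (40%) and 10 of 20 (50%). The median footprint log2 ratios of the 3 genes were -1.65, -1.49 and -1.42, against -0.96, -0.48 and -0.67 over all genes.

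Whether the diet response itself differed between genotypes was computed for each gene as a ratio of ratios. For Sepw1 the log2 difference (TrspA37G minus wild type) at 0 ppm was 0.31 (-0.14 to 0.77) in mRNA and 0.06 (-1.90 to 2.01) in footprints, so the footprint interval allows about 4-fold in either direction (0.269 to 4.03). For Selh it was -0.92 (-3.28 to 1.44) in mRNA and -0.16 (-1.77 to 1.46) in footprints. For Selt the response at 0 ppm was lower in TrspA37G livers by log2 -0.54 (-0.70 to -0.39) in mRNA and -0.48 (-0.88 to -0.09) in footprints, and at 2.0 ppm it was higher by 0.36 (0.22 to 0.51) and 0.36 (0.03 to 0.70). These Selt differences are below 1.5-fold, and variation between mice is not in their intervals. After median scaling, added after seeing the data, the Selt difference at 0 ppm was -0.33 (-0.49 to -0.18) in mRNA and -0.13 (-0.53 to 0.26) in footprints, so that the interval for footprints included 0. At 2.0 ppm the scaled Selt values were 0.39 (0.24 to 0.53) in mRNA and 0.43 (0.10 to 0.77) in footprints. For Sepw1 mRNA the scaled difference at 0 ppm was 0.52 (0.07 to 0.98), and for Selh footprints it was 0.19 (-1.42 to 1.81), which turns its sign. None of the 3 genes passed the rule in mRNA, footprints or efficiency. Of all 20 genes, 15% did so in mRNA, 40% in footprints and 25% in efficiency at 0 ppm, and 10%, 5% and 0% at 2.0 ppm.

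Translational efficiency is the CDS footprint level divided by the whole-mRNA level, and for Sepw1 it counts only footprints past the UGA. Differences in efficiency between the 3 genes were not tested. For Sepw1 it was 0.0529, 0.195 and 0.201 in TrspA37G livers and 0.147, 0.453 and 0.491 in wild-type livers at 0, 0.1 and 2.0 ppm. It was 3.69-fold lower (1.09 to 19.4) at 0 than at 0.1 ppm in TrspA37G livers and 3.09-fold lower (1.57 to 6.76) in wild-type livers. In TrspA37G livers it was lower than in wild-type livers by 2.32-fold at 0.1 ppm (1.46 to 3.77) and by 2.45-fold at 2.0 ppm (1.53 to 4.02), and at 0 ppm the log2 ratio was -1.47 (-4.00 to 0.54). For Selt the efficiency was 0.360, 0.580 and 0.567 in TrspA37G livers and 0.428, 0.719 and 0.704 in wild-type livers. It was 1.61-fold lower (1.28 to 2.03) at 0 ppm in TrspA37G livers and 1.68-fold lower (1.40 to 2.02) in wild-type livers, while no genotype difference passed the rule, the log2 ratios being -0.25, -0.31 and -0.31 at 0, 0.1 and 2.0 ppm, or 0.01, -0.01 and 0.16 after median scaling. The Selt efficiency also counts footprints before the UGA. Past the UGA alone, Selt footprints over mRNA were 0.130, 0.426 and 0.327 in TrspA37G livers and 0.265, 0.553 and 0.589 in wild-type livers, without intervals. For Selh the efficiency was 2.57, 3.00 and 2.33 in TrspA37G livers and 1.03, 2.04 and 3.60 in wild-type livers, and no comparison was called. With so few Selh reads, the interval at 0 ppm in TrspA37G livers runs from 0.112-fold to 10.7-fold.

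Efficiency was thus called lower at 0 ppm for 2 of the 3 genes in each genotype, where 7 of 20 genes (35%) were lower in TrspA37G livers and 6 of 20 (30%) in wild-type livers. Between genotypes it was called lower for 0, 1 and 1 of the 3 genes at 0, 0.1 and 2.0 ppm, against 15%, 30% and 30% of 20 genes. The efficiency of no member of the family was called at 2.0 against 0.1 ppm, where 1 of 20 genes was higher in wild-type livers (5%). The median log2 efficiency ratio at 0 ppm over all genes was -0.31 in TrspA37G livers and -0.51 in wild-type livers, and median scaling left Sepw1 in wild-type livers as the only one of the 4 calls, with log2 -1.12. When mRNA was taken over the CDS window in place of the whole mRNA, the calls in TrspA37G livers ended, with log2 -1.67 (-4.09 to 0.13) for Sepw1 and -0.45 (-0.92 to 0.02) for Selt.

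Setting 2 genes of the same library against each other cancels the scaling of libraries. Sepw1 mRNA over Selt mRNA was 0.433, 0.777 and 0.702 in TrspA37G livers and 0.376, 1.22 and 1.31 in wild-type livers at 0, 0.1 and 2.0 ppm. Over the whole mRNA, Sepw1 was therefore above Selt only in selenium-fed wild-type livers. Over the CDS window, Sepw1 mRNA was above Selt mRNA in selenium-fed TrspA37G livers too. There it was at 53.0 against 31.2 RPKM at 0.1 ppm and 64.7 against 44.9 RPKM at 2.0 ppm. In footprints the ratio of Sepw1 to Selt was 0.0638, 0.262 and 0.249 in TrspA37G livers and 0.129, 0.768 and 0.913 in wild-type livers. At 0 against 0.1 ppm the ratio of Sepw1 to Selt was 1.79-fold lower (1.37 to 2.35) in mRNA and 4.10-fold lower (1.23 to 21.4) in footprints of TrspA37G livers. In wild-type livers it was 3.25-fold lower (2.69 to 3.93) in mRNA and at log2 -2.58 (-3.70 to -1.60) in footprints. Between genotypes it was lower in TrspA37G livers at 0.1 ppm, by 1.57-fold in mRNA (1.30 to 1.90) and 2.94-fold in footprints (1.87 to 4.74), and at 2.0 ppm, by 1.86-fold in mRNA (1.58 to 2.19) and 3.67-fold in footprints (2.27 to 6.07). At 0 ppm it was not called, at log2 0.21 (-0.19 to 0.60) in mRNA and -1.01 (-3.54 to 0.98) in footprints.

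Selh was below Selt in mRNA and footprints of every library. Selh mRNA was 0.0106, 0.0360 and 0.0525 of the Selt level in TrspA37G livers and 0.0492, 0.129 and 0.103 of it in wild-type livers. Selh footprints were 0.0756, 0.186 and 0.216 of the Selt level in TrspA37G livers and 0.119, 0.368 and 0.524 in wild-type livers. In wild-type livers the ratio was 2.63-fold lower (1.56 to 4.43) in mRNA and 3.09-fold lower (1.65 to 6.19) in footprints at 0 than at 0.1 ppm. In TrspA37G livers neither was called, with log2 -1.77 (-4.01 to 0.47) and -1.30 (-3.06 to 0.14). The ratio was lower in TrspA37G than in wild-type livers in mRNA at all 3 diets, by 4.66-fold at 0 ppm (1.09 to 19.9), 3.59-fold at 0.1 ppm (1.69 to 7.66) and 1.95-fold at 2.0 ppm (1.12 to 3.41). In footprints it was lower at 0.1 ppm, by 1.98-fold (1.23 to 3.24), and at 2.0 ppm, by 2.42-fold (1.52 to 3.91), and at 0 ppm it was at log2 -0.66 (-2.53 to 0.97).

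**Figure D3:**
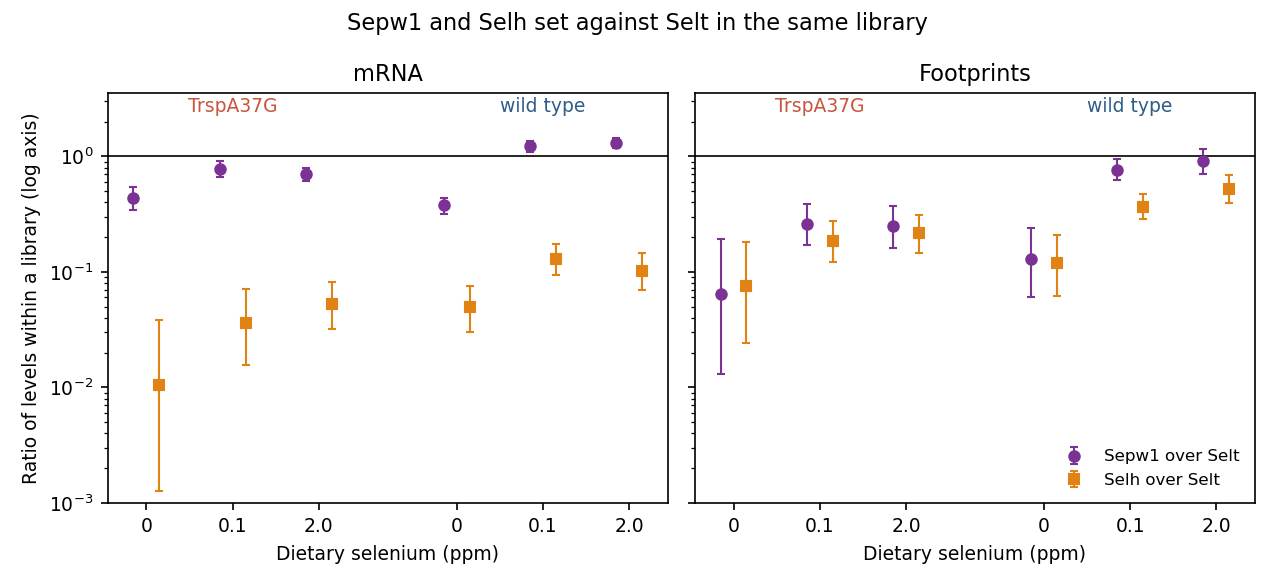
Ratio of the Sepw1 level (circles) and the Selh level (squares) to the Selt level within each library, on a log axis, for mRNA and footprints by genotype and diet, with 95% counting intervals. In levels over the whole mRNA, as drawn, Sepw1 lies above Selt only in wild-type livers at 0.1 and 2.0 ppm, at 1.22 and 1.31 times its level.

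Sepw1 and Selh differed from each other in mRNA between genotypes, where Sepw1 over Selh was higher in TrspA37G livers by 5.38-fold at 0 ppm (1.26 to 48.2) and by 2.29-fold at 0.1 ppm (1.04 to 5.74). No footprint comparison separated them, and the intervals were wide, for example 0.193-fold to 1.35-fold at 0 against 0.1 ppm in wild-type livers. In all, 10 of 21 mRNA and 7 of 21 footprint comparisons between 2 of the 3 genes were called. No pair was called at 2.0 against 0.1 ppm, where of the 190 pairs of all genes compared 16.3% in mRNA and 15.3% in footprints were called in TrspA37G livers, and 11.1% and 12.6% in wild-type livers. Differences between 2 selenoprotein genes were common, since of the 190 pairs of all genes compared 41.6% in mRNA and 53.7% in footprints were called at 0 ppm in wild-type livers. In TrspA37G livers these shares were 35.8% and 48.4%. Between genotypes 37.9%, 42.6% and 41.1% of all pairs were called in mRNA at 0, 0.1 and 2.0 ppm, and 33.7%, 59.5% and 66.3% in footprints.

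Within the coding sequence, Selt footprints thinned past the UGA. The window 5' of the UGA held 29.7, 41.5 and 76.4 RPFKM in TrspA37G livers and 43.3, 51.5 and 48.3 RPFKM in wild-type livers at 0, 0.1 and 2.0 ppm, from 72 to 142 footprints. The window 3' of it held 2.85, 12.8 and 13.7 RPFKM in TrspA37G livers and 9.71, 19.0 and 21.9 RPFKM in wild-type livers, from 35 to 245 footprints. The 5' density at 2.0 ppm in TrspA37G livers was thus the highest of the 6, while the 3' density there was below that of wild-type livers at 0.1 and 2.0 ppm. The ratio of 3' to 5' density was 0.0959, 0.307 and 0.179 in TrspA37G livers and 0.224, 0.369 and 0.455 in wild-type livers. At 0 against 0.1 ppm it was 3.20-fold lower (1.95 to 5.31) in TrspA37G livers, where 7 of 10 genes with both windows were lower (70%), and 1.64-fold lower (1.13 to 2.39) in wild-type livers, where 8 of 12 were (66.7%). At 2.0 against 0.1 ppm it was 1.72-fold lower (1.20 to 2.45) in TrspA37G livers, alone among 11 genes (9.09%), and at log2 0.30 (-0.22 to 0.83) in wild-type livers, where 1 of 12 genes was lower (8.33%). Between genotypes it was 2.34-fold lower (1.39 to 3.98) at 0 ppm, alone among 9 genes (11.1%), and 2.54-fold lower (1.73 to 3.72) at 2.0 ppm, where 2 of 12 genes were lower (16.7%), and at log2 -0.26 (-0.75 to 0.23) at 0.1 ppm.

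The mRNA reads of Selt were themselves uneven over these windows, with a ratio of 3' to 5' density of 2.27, 1.97 and 2.25 in TrspA37G livers and 2.66, 3.73 and 1.51 in wild-type livers. These rest on only 10 to 31 reads in the 5' window. Dividing the footprint ratio by the mRNA ratio kept the call at 0 against 0.1 ppm in TrspA37G livers, with log2 -1.88 (-3.25 to -0.51), and that between genotypes at 2.0 ppm, with -1.91 (-2.87 to -0.96). It ended the call at 0 ppm in wild-type livers, with -0.23 (-1.31 to 0.85), at 2.0 ppm in TrspA37G livers, with -0.97 (-2.04 to 0.10), and between genotypes at 0 ppm, with -0.996 (-2.29 to 0.30). At 2.0 against 0.1 ppm in wild-type livers it brought the ratio past the rule as higher, with 1.60 (0.53 to 2.67). The diet response of the footprint ratio differed between genotypes past the rule, by log2 -0.96 (-1.82 to -0.11) at 0 ppm and -1.08 (-1.79 to -0.37) at 2.0 ppm (TrspA37G minus wild type). Such differences were common at 0 ppm, where 5 of 10 genes passed (50%), and fewer at 2.0 ppm, where 3 of 11 did (27.3%). At 0 ppm the other 4 of them were positive, among them Gpx1 with 1.03 (0.67 to 1.38) and Sepp1 with 0.96 (0.85 to 1.08). Divided by the mRNA ratio, an alternative added after seeing the data, the Selt differences were -1.65 (-3.40 to 0.10) at 0 ppm and -2.57 (-4.08 to -1.06) at 2.0 ppm.

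Selh footprints lay mainly in the 18 bases between the windows, taken to be the 6 codons that end with the UGA. These bases read gagcattgtacgagcTGA in Selh and cagatttgtgtatccTGA in Selt, the UGA again in capitals. In Selh they held 4 of 5, 20 of 28 and 22 of 33 CDS footprints in TrspA37G livers and 10 of 13, 44 of 80 and 42 of 71 in wild-type livers. Over the 6 libraries this was 142 of 230 footprints (61.7%), against 20.9% of mRNA reads and 6.19% of the length of the window. In Selt they held 13 of 120, 7 of 273 and 6 of 277 footprints in TrspA37G livers and 12 of 198, 19 of 395 and 8 of 246 in wild-type livers. The Selt total was 65 of 1509 (4.31%), close to the 3.41% of length but above the 0.572% of mRNA reads. Among the 12 genes with such a stretch, the share of footprints over the share of length was 9.98-fold in Selh, second to Gpx1, the cytosolic glutathione peroxidase, with 22.5-fold, and Selt ranked 8 with 1.26-fold. These ranks set footprints against length and do not take the shares of mRNA reads into account. Only window lengths could be recovered, so the place of these bases is inferred and was not tested.

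**Figure D4:**
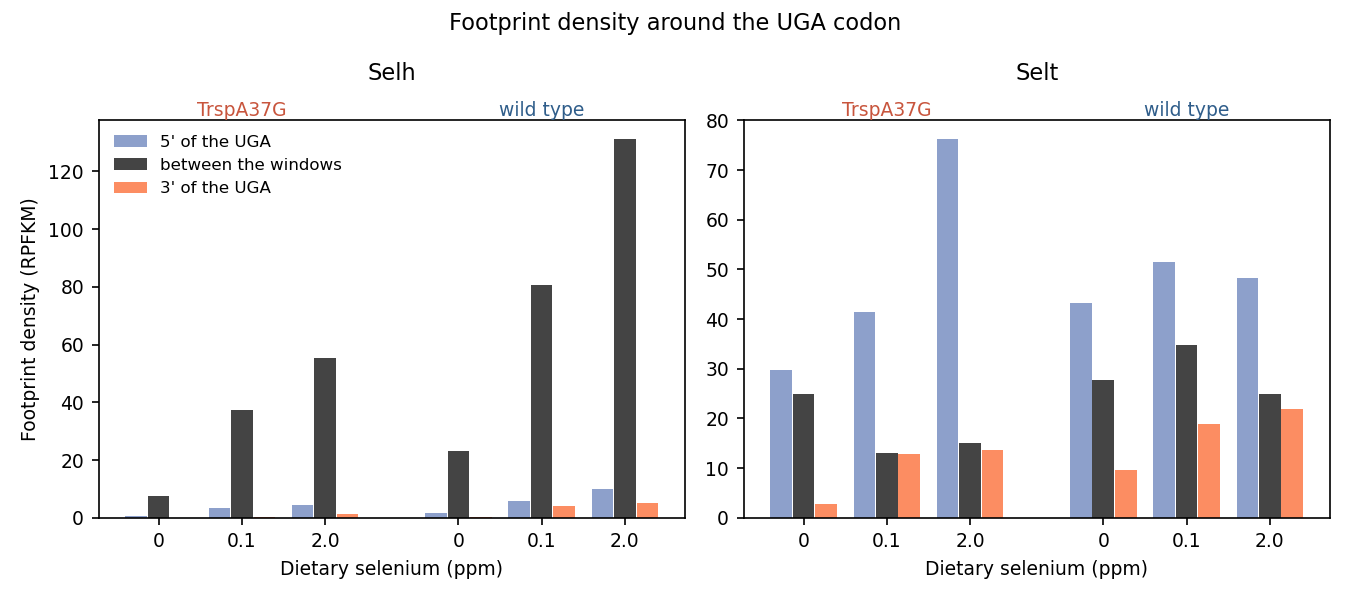
Footprint density in RPFKM in the window 5' of the UGA, in the 18 bases between the windows and in the window 3' of the UGA, for Selh (left) and Selt (right) by genotype and diet, 1 library per group of bars and no intervals drawn. In Selh the density between the windows exceeds that of both windows in all 6 libraries, and in Selt the window 5' of the UGA is the densest in all 6.

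Past the UGA, Selh had 0, 3 and 6 footprints in TrspA37G livers and 1, 27 and 20 in wild-type livers, so most of what was counted as Selh translation did not lie in the 3' window. A count of 0 allows up to 3 footprints, or 0.468 RPFKM, at 0 ppm in TrspA37G livers. In the 5' window Selh had 1, 5 and 5 footprints in TrspA37G livers and 2, 9 and 9 in wild-type livers. The 3' to 5' ratio could be compared for Selh in 4 of the 7 comparisons and was called in none. Without the bases between the windows, Selh footprints at 0 against 0.1 ppm in wild-type livers were at log2 -3.25 (-5.59 to -1.58) in place of -2.28. Between genotypes they were at -2.15 (-3.46 to -1.02) at 0.1 ppm and -1.72 (-2.87 to -0.67) at 2.0 ppm in place of -1.49 and -1.42. At 0 ppm in TrspA37G livers too few Selh reads remained for a comparison.

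For Sepw1 the 3' window is 2 codons longer than the CDS window. From its length alone it was taken to begin right after the UGA, which was not tested. It held 5, 35 and 35 footprints in TrspA37G livers and 14, 130 and 111 in wild-type livers. Those 2 codons held 2, 7 and 8 of them in TrspA37G livers and 4, 11 and 23 in wild-type livers. In this window Sepw1 was at log2 -2.76 (-4.47 to -1.40) at 0 against 0.1 ppm in TrspA37G livers and -2.88 (-3.79 to -2.08) in wild-type livers, and at -1.76, -1.87 and -1.98 between genotypes at 0, 0.1 and 2.0 ppm. All 5 remained past the rule. No footprints 5' of the UGA can be set beside them.

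Because the CDS window of Sepw1 lies wholly past the UGA and that of Selt does not, the 3' windows were also compared, a choice made after seeing the data. Past the UGA, Sepw1 density over Selt density was 0.286, 0.432 and 0.543 in TrspA37G livers and 0.283, 1.06 and 1.34 in wild-type livers at 0, 0.1 and 2.0 ppm. The ratio was thus about the same in both genotypes at 0 ppm and lower in TrspA37G livers at 0.1 and 2.0 ppm. Between genotypes it was lower by 2.46-fold at 0.1 ppm (1.59 to 3.86) and by 2.46-fold at 2.0 ppm (1.55 to 3.96), with log2 0.01 (-1.92 to 1.70) at 0 ppm. At 0 against 0.1 ppm it was 3.75-fold lower in wild-type livers (2.03 to 7.38). In TrspA37G livers it was 1.51-fold lower with an interval that includes 1 (0.534 to 5.29), so the call made over the CDS windows there was lost. The Selt 3' window itself was 4.48-fold lower at 0 than at 0.1 ppm in TrspA37G livers (3.09 to 6.66), while its CDS window was 2.20-fold lower. Set over mRNA, 3' footprints of Sepw1 came to 0.0857, 0.237 and 0.253 in TrspA37G livers and 0.200, 0.481 and 0.602 in wild-type livers. Those of Selt came to 0.130, 0.426 and 0.327 in TrspA37G livers and 0.265, 0.553 and 0.589 in wild-type livers. The values of both genes were thus near each other in selenium-fed wild-type livers, without intervals. That nearness depends on dividing by the whole-mRNA level. Over the 3' window, mRNA at 0.1 and 2.0 ppm in wild-type livers was at 84.9 and 101 RPKM for Sepw1 and 43.7 and 45.1 RPKM for Selt.

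The genes whose levels over the 6 conditions were most like those of each gene were found by the root mean square difference of centred log2 levels. For Sepw1 mRNA they were Gpx1 at 0.27, the thioredoxin reductase Txnrd3 at 0.45 and Selm, a redox protein of the endoplasmic reticulum, at 0.51, against a median of 0.70 over 18 genes. For Selt mRNA they were Sep15, an oxidoreductase of the endoplasmic reticulum, at 0.12, Selo at 0.13 and Sephs2, the selenophosphate synthetase, at 0.22, against a median of 0.33 over 18 genes. Sepw1 ranked 17 of 18 in likeness to Selt. In footprints Selt was again closest to Sep15, at 0.16, followed by Sepn1 at 0.25 and Selo at 0.30, against a median of 0.41 over 15 genes. Sepw1 footprints were closest to Gpx1 at 1.03, Sephs2 at 1.12 and Txnrd3 at 1.15, against a median of 1.52 over 16 genes. Some of these likenesses rest on few reads, down to 10 for Selm mRNA, 12 for Sepn1 footprints and 3 for Sepw1 footprints. For Selh, with as few as 2 mRNA reads and 5 footprints, the closest were Gpx1 at 0.60, Txnrd3 at 0.79 and Sepw1 at 0.80 in mRNA (median 1.22 over 19 genes) and Sephs2 at 0.73, Sep15 at 0.83 and Txnrd3 at 0.84 in footprints (median 1.12 over 16 genes).

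Sepw1 and Selh belong to the selenoproteins known as stress-related, with Gpx1, Gpx3, Selk and Sepx1. At 0 against 0.1 ppm, mRNA was lower for 2 of these 6 in TrspA37G livers (median log2 -0.96) and 3 of 6 in wild-type livers (-0.89). Their footprints were lower for 5 and higher for 1, the methionine sulfoxide reductase Sepx1, in TrspA37G livers (-1.86), and lower for 4 in wild-type livers (-1.37). Selt was counted among 8 housekeeping selenoproteins with Gpx4, Sep15, Sephs2, Seli, Txnrd1, Txnrd2 and Sepp1. Of these 2 had lower mRNA in TrspA37G livers (-0.44) and none in wild-type livers (-0.08), while 6 of 8 had lower footprints in each genotype (-0.89 and -0.82). Selt is also 1 of 7 endoplasmic reticulum selenoproteins that could be compared, of which 1 had lower mRNA in TrspA37G livers (-0.32) and none in wild-type livers (-0.22), and 5 (-1.24) and 3 (-0.11) had lower footprints. Between genotypes the stress-related footprints were lower in TrspA37G livers for 5, 4 and 5 of 6 at 0, 0.1 and 2.0 ppm, the housekeeping ones for 4, 3 and 4 of 8 and those of the endoplasmic reticulum for 3, 0 and 0 of 7. Over all 20 genes the shares lower in footprints were 60%, 40% and 50% between genotypes, so the housekeeping counts lay near them. At 0 against 0.1 ppm they were 30% in mRNA and 70% in footprints of TrspA37G livers, and 20% and 55% in wild-type livers.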

How the data were processed

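The deposited tables give, per the file headers, RPKM values of mRNA over the whole mRNA, and RPKM (mRNA) and RPFKM (footprints) over the coding sequence without its first 15 and last 3 codons and over the parts 5' and 3' of the UGA; the authors scaled each value to region length and mapped reads. Per the submitters' processing notes, reads were mapped with Bowtie to mm9. Per the labels' protocols, livers were frozen, homogenised with cycloheximide and digested with an RNase for monosomes. In the deposited tables, header column 8 is named both mRNA and RPFKM and was read as footprints.

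Whole reads were recovered from the RPKM values deposited: with 1 number of mapped reads per library, 795 of 795 values above 0 were whole within 0.001. The CDS window matched annotated codons for 22 of 23 genes when 57 nt shorter than the coding sequence (95.3% of values whole, against 10.5% at the next best length). Lengths of whole mRNAs and of the 5' and 3' windows were the smallest that gave whole reads, so mRNA reads are the fewest possible and their intervals the widest. GENCODE M21 supplied sequences and transcript structure.

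A gene entered a comparison with at least 10 reads over both libraries and 1 in each, in every region used. Intervals (95%) are exact conditional for ratios, exact conditional odds ratios up to 2000 reads and log-normal otherwise for ratios of ratios, and log-normal for differences in diet response. They cover counting error only. With 1 library per group there is no test and no p-value. A fit of genotype over the diets was left out, since exchanging the genotypes within each of 3 diets allows no two-sided exact permutation p under 0.25. Genes named besides Sepw1, Selh and Selt are the 3 of closest pattern with at least 10 reads in each of 6 libraries, or members of the stress-related, housekeeping, endoplasmic reticulum and selenoprotein W type lists. The last of these also names Selv, which is not analysed here. The genes, lists and comparisons were chosen with earlier results of these data known. Alternatives were median-ratio scaling over the genes compared, other read floors, a pseudocount of 1, a 2-fold threshold, mRNA over the CDS window, footprints without the bases between the windows and the 3' to 5' ratio over that of mRNA, to which the 3' windows of pairs of genes and the alternatives for differences in diet response were added after seeing the data. Python 3.11.15, numpy 2.4.6, pandas 2.3.3, SciPy 1.17.1 and matplotlib 3.10.9 were used.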

Additional observations from a re-analysis of the deposited data

Results flagged for a closer look

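The ratio of 3' to 5' footprint density of Selt between 2.0 and 0.1 ppm selenium differed between genotypes and had opposite signs. It was at log2 -0.78 (-1.29 to -0.26) in TrspA37G livers and 0.30 (-0.22 to 0.83) in wild-type livers, where it did not pass the rule, a difference of -1.08 (95% counting interval -1.79 to -0.37). In TrspA37G livers the 5' density was 41.5 RPFKM at 0.1 ppm and 76.4 at 2.0 ppm. The 3' density there was not lower at 2.0 ppm, at log2 0.10 (-0.24 to 0.44). Of 11 genes compared, 27.3% had a difference of at least 1.5-fold with an interval that excludes 0. Besides Selt these were Sepp1, at -0.63 (-0.73 to -0.53), and Gpx1, in the other direction at 0.89 (0.66 to 1.12). There is 1 library per genotype and diet, so the difference was not tested against variation between mice. Divided by the 3' to 5' ratio of mRNA, an alternative chosen after seeing the data, the Selt difference was -2.57 (-4.08 to -1.06). That value rests on few 5' mRNA reads of Selt. At 0.1 and 2.0 ppm these were 16 and 25 in TrspA37G livers and 14 and 31 in wild-type livers.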

How the results depend on the processing

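Leaving out replicates was not possible, since each group has 1 library. No paired analysis was possible because the labels give no replicate numbers that groups could share. The genotypes could have been fitted with the diets as blocks, which was left out. Counts below are gene by comparison, over the genotypes or diets. Median-ratio scaling rests on selenoprotein genes alone, so it also divides out any change they share. Median-ratio scaling gave 3 in place of 5 genotype calls lower and 1 in place of 0 higher in mRNA, 3 in place of 6 footprint calls lower at 0 against 0.1 ppm, 0 in place of 1 higher at 2.0 ppm, 4 in place of 7 lower between genotypes and 1 in place of 4 efficiency calls lower at 0 ppm. It turned Selt footprints in wild-type livers to log2 0.077 in place of -0.66. The 2-fold threshold gave 2 genotype calls in mRNA, 0 footprint calls higher at 2.0 ppm, 2 efficiency calls lower at 0 ppm, 1 in place of 2 and 0 in place of 1 calls of the 3' to 5' ratio lower at 0 and 2.0 ppm, 6 in place of 10 mRNA pairs and, chosen after seeing the data, 1 in place of 2 differences in diet response between genotypes. A pseudocount of 1, and footprints without the bases between the windows, each gave 0 footprint calls higher at 2.0 ppm. The mRNA over the CDS window gave 2 efficiency calls lower at 0 ppm and 6 mRNA pairs. The 3' to 5' ratio over that of mRNA gave 1 in place of 2 calls lower at 0 ppm, 0 in place of 1 lower and 1 in place of 0 higher at 2.0 ppm, and 1 in place of 2 lower between genotypes. Footprints over the 3' window in each gene, chosen after seeing the data, gave 5 in place of 7 footprint pairs. The causes were not tested, beyond the stricter threshold itself. No read floor and a floor of 30 reads moved no count by over 1.5 times. Depth limits Selh above all, with 2 mRNA reads and 0 footprints past the UGA at 0 ppm in TrspA37G livers.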
